A study of Mus musculus with 6 samples.

Results

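Cells recognise foreign or misplaced nucleic acids through a small set of sensors that pass the signal to adaptor proteins, and 10 genes of this system were followed in RetSat-depleted primary mouse hepatocytes. They were chosen by name: 7 sensors (Ddx58, Ifih1, Dhx58, Tlr3, Tlr7, Eif2ak2 and Zbp1) and 3 adaptors (Mavs, Tmem173, here under the symbol Sting1, and Ticam1). Each of the 10 had a single probe set naming that gene alone, so that all 10 were measured, among 19938 genes in all. Hepatocytes of a male wild-type C57BL/6J mouse, 10 weeks old, received 1 nmol of siRNA per well with Lipofectamine 2000 overnight, either against RetSat (siRetSat, n = 3 transfections) or control siRNA (siControl, n = 3 transfections). Cells had been seeded in medium with 25 mM glucose, and RNA was taken 48 h after the morning medium change. From each culture 100 ng of RNA was hybridised to an Affymetrix Mouse Gene 1.0 ST array, which gave 1 normalized log2 intensity per probe set. The descriptions deposited with the arrays name a single mouse and Dharmacon as the siRNA supplier, whereas the methods of the study name Eurogentec. The sequences of the duplexes were not used here. Cells of 1 mouse were transfected repeatedly, so p-values cover the variation between transfections and not that between mice. Both groups had been exposed to lipid-complexed RNA duplexes, and neither untransfected cells nor a second siRNA against RetSat was analysed here, so RetSat loss and other effects of this duplex cannot be told apart.

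RIG-I (Ddx58), MDA5 (Ifih1) and LGP2 (Dhx58) are helicases that bind double-stranded RNA in the cytosol, and the first of these prefers RNA with a 5′ triphosphate. RIG-I and MDA5 signal through the mitochondrial adaptor MAVS, whereas LGP2 lacks the signalling domains and modulates the others. TLR3 senses double-stranded RNA in endosomes and signals through TRIF (Ticam1), while TLR7 senses single-stranded RNA there. PKR (Eif2ak2) is a kinase that halts translation when it binds double-stranded RNA. ZBP1 binds nucleic acids in the left-handed Z form and can start RIPK3-dependent cell death, and STING (Sting1) relays the signal of the DNA sensor cGAS. Several of these sensors are themselves induced by type I interferon, and that is background rather than a result of these data.

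The siRNA lowered its target, since Retsat had log2 values of 4.62, 4.83 and 4.81 in siRetSat and of 6.80, 7.04 and 7.01 in siControl, which left 21.8% of the control signal. None of 11 measured hepatocyte markers was dim, and the brightest, Alb, had a mean log2 value of 13.05 in siRetSat and 12.98 in siControl. Of the 11, 3 fell (Cps1, Fgb and Ahsg), none rose and 8 did not pass, with a list median of -0.14. By the same rule 1.66% of all genes were lower and 1.91% higher. An unadjusted limma p under 0.05 was met by 4 of the 11 as lower and none as higher, beside 7.52% and 6.98% of all genes. The methods' t-test at the study's cutoffs gave the same counts, beside 3.55% and 3.6% of all genes. The log2 of the summed signal of these markers ran from 14.83 to 14.90 in siRetSat and from 14.95 to 15.07 in siControl, without overlap. The part of this difference in the results was not tested. With a single array left out, Cps1 and Ahsg passed in 2 of 6 fits and Fgb in 1. The arrays numbered 1 stood apart from the rest of their groups when deviations from the group means were summarised by a first principal component, with scores of -23.61 for siRetSat 1 and -19.05 for siControl 1 against 3.663 to 16.35 for the other arrays. Genes with a mean under 4.33, the lowest 40% of all genes, are called dim here.

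Of the 10 sensors and adaptors, 5 rose in siRetSat, none fell and 5 missed the threshold, which was a limma p of 0.05 after adjustment over all genes. Over all genes 1.91% were higher and 1.66% lower in siRetSat by the same rule. The 5 were Zbp1, Tlr3, Dhx58, Ddx58 and Ifih1, all of them sensors. For the same 5 every siRetSat value lay above every siControl value, which held for 9.33% of all genes, and no member had the reverse, which held for 10.1%. No member was lower at an unadjusted p under 0.05 from limma or at the cutoffs of the study by the methods' t-test. Over all genes an unadjusted limma p under 0.05 was met by 6.98% as higher and 7.52% as lower, and the cutoffs of the methods' t-test by 3.6% as higher and 3.55% as lower. The median log2 fold change was 1.00 over the 7 sensors and -0.06 over the 3 adaptors, beside 0.003 over all genes. None of the 3 adaptors passed in either direction, also at an unadjusted p under 0.05. Leaving out both arrays numbered 1 gave the same 5 genes, whereas leaving out both arrays numbered 2 left only Zbp1. Members were chosen with earlier results of these data known, so these counts are a description of the list.

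**Figure D1:**
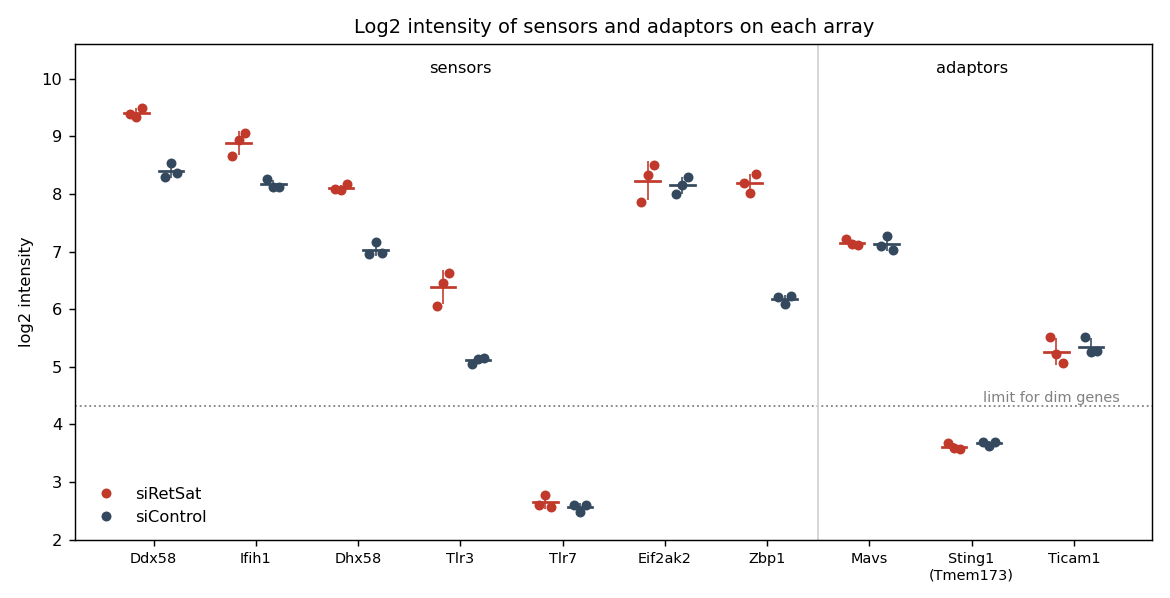
Each dot is 1 array, as the normalized log2 intensity of the 7 sensors and 3 adaptors, with siRetSat at the left and siControl at the right of each pair. Horizontal bars are group means, vertical lines 1 SD to each side (n = 3), the dotted line marks the limit of 4.33 for dim genes, and the groups lie apart for Ddx58, Ifih1, Dhx58, Tlr3 and Zbp1.

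Zbp1 had the largest change among the members. Its log2 values were 8.19, 8.02 and 8.34 in siRetSat and 6.21, 6.09 and 6.23 in siControl. The groups lay 1.79 log2 units apart at their nearest values, many times the SD of 0.16 in siRetSat and 0.08 in siControl. This is a log2 fold change of 2.01 (SE 0.106, limma adjusted p = 0.000194), or 4.02-fold with a 95% interval of 3.40 to 4.76. Zbp1 held place 5 among all 19938 genes ordered by log2 fold change, and it passed in all 6 fits that left out a single array.

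The 3 RIG-I-like receptors rose together, with Dhx58 and Ddx58 at about a doubling of signal. Ddx58 had log2 values of 9.38, 9.33 and 9.49 in siRetSat and of 8.29, 8.53 and 8.37 in siControl. The lowest siRetSat array lay 0.80 above the highest siControl array, and the log2 fold change was 1.00 (SE 0.0980, limma adjusted p = 0.00194), or 2.0-fold with a 95% interval of 1.71 to 2.34. Dhx58 had log2 values of 8.08, 8.06 and 8.17 in siRetSat and of 6.95, 7.16 and 6.98 in siControl. Its groups were 0.90 apart, at a log2 fold change of 1.07 (SE 0.0934, limma adjusted p = 0.00128), or 2.10-fold (95% interval 1.81 to 2.44). Both genes passed in all 6 fits that left out a single array.

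Ifih1 rose less firmly than the other members of this receptor family. Its log2 values were 8.66, 8.94 and 9.06 in siRetSat and 8.25, 8.12 and 8.12 in siControl. The siRetSat array numbered 1 was the lowest of its group and lay 0.41 above the highest siControl array. The log2 fold change was 0.72 (SE 0.118, limma adjusted p = 0.0168), or 1.65-fold (95% interval 1.37 to 1.99). Ifih1 passed in 2 of 6 fits that left out a single array and missed the threshold without siRetSat 2 (adjusted p = 0.0908), siRetSat 3 (adjusted p = 0.0573), siControl 2 (adjusted p = 0.0983) or siControl 3 (adjusted p = 0.0697), all from limma. It also missed it after each array was centred on its median (limma, adjusted p = 0.0509).

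The ratios between these receptors within an array were compared for the 3 possible pairs. The log2 value of Ddx58 minus that of Dhx58 ran from 1.27 to 1.32 in siRetSat and from 1.34 to 1.39 in siControl, so that their fold changes differed by -0.07 with groups that did not overlap (p = 0.1 by a two-sided exact permutation test, the lowest that 3 against 3 arrays can give). For Ddx58 minus Ifih1 the values ran from 0.39 to 0.72 in siRetSat and from 0.04 to 0.41 in siControl, a difference of 0.28 with overlapping groups (exact permutation test, p = 0.2). For Ifih1 minus Dhx58 they ran from 0.58 to 0.89 in siRetSat and from 0.96 to 1.30 in siControl. These groups did not overlap, at a difference of -0.35 (exact permutation test, p = 0.1). At this number of arrays none of the 3 pairs could reach 0.05, before or after adjustment over the pairs. Within each group Ddx58 and Dhx58 kept almost the same ratio on every array, with an SD of 0.03 in both groups, against 0.18 in siRetSat and 0.19 in siControl for Ddx58 minus Ifih1.

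Among the endosomal receptors Tlr3 rose, and Tlr7 did not pass and was dim. Tlr3 had log2 values of 6.05, 6.46 and 6.62 in siRetSat and of 5.05, 5.14 and 5.16 in siControl. The siRetSat arrays spread widely (SD 0.29) but stayed 0.89 above the siControl arrays, whose SD was 0.06. The log2 fold change was 1.26 (SE 0.144, limma adjusted p = 0.00368), or 2.39-fold (95% interval 1.90 to 3.01). Tlr3 passed in all 6 fits that left out a single array. Tlr7 had log2 values of 2.61, 2.77 and 2.56 in siRetSat and of 2.61, 2.48 and 2.60 in siControl. The groups overlapped, and at this brightness a change of Tlr7 could be missed. Its log2 fold change was 0.08 (95% interval -0.13 to 0.30, limma adjusted p = 0.832).

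Eif2ak2, which encodes PKR, was bright but did not pass. Its log2 values were 7.86, 8.33 and 8.50 in siRetSat and 7.99, 8.16 and 8.29 in siControl. The siRetSat array numbered 1 was the lowest of all 6 and siRetSat 3 the highest, so that the groups overlapped fully. The log2 fold change was 0.08 (SE 0.166, limma adjusted p = 0.923), or 1.06-fold with a 95% interval of 0.813 to 1.38. This interval lies below the intervals of Ddx58, Dhx58, Tlr3 and Zbp1 and meets that of Ifih1, and the differences between genes were not tested. Without siRetSat 1, the log2 fold change of Eif2ak2 was 0.27 (limma, adjusted p = 0.353), and without siRetSat 3 it was -0.05 (limma, adjusted p = 0.936), so its direction rests on single arrays.

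The 3 adaptors did not pass the test. Mavs had log2 values of 7.21, 7.13 and 7.12 in siRetSat and of 7.10, 7.27 and 7.02 in siControl, with siRetSat lying inside the siControl range. Its log2 fold change was 0.02 (limma, adjusted p = 0.973), or 1.02-fold with a 95% interval of 0.873 to 1.18. Ticam1 had log2 values of 5.51, 5.22 and 5.06 in siRetSat and of 5.52, 5.26 and 5.27 in siControl. In both groups the array numbered 1 was the highest for Ticam1, and the groups overlapped. Its log2 fold change was -0.09 (limma, adjusted p = 0.888), or 0.942-fold (95% interval 0.760 to 1.17). Sting1 (Tmem173) was dim, with log2 values of 3.68, 3.59 and 3.58 in siRetSat and of 3.69, 3.63 and 3.70 in siControl. Its log2 fold change was -0.06 (95% interval -0.25 to 0.13, limma adjusted p = 0.881), and a change of a dim gene could be missed.

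**Figure D2:**
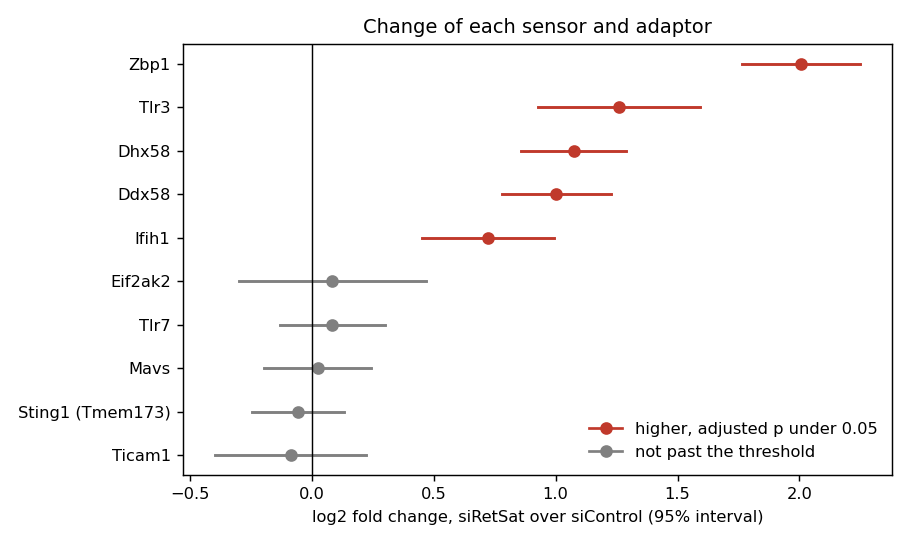
Points are log2 fold changes of siRetSat over siControl from limma and lines their 95% intervals, for the 10 sensors and adaptors ordered by size, with 3 arrays per group. Red marks an adjusted p under 0.05, from Zbp1 at 2.01 down to Ifih1 at 0.72, and the intervals of the 5 grey genes include 0.

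Promoter windows were available for 6 of the 10 genes in the RefSeq table for GRCm38.p6, namely Ddx58, Ifih1, Eif2ak2, Tlr3, Mavs and Ticam1. Each window holds 250 bases before and 50 bases after the annotated start. Both strands were searched for the letters GAAA, then any 2 bases, then GAAA, the core of the interferon-stimulated response element (ISRE) through which interferon-activated factors bind DNA. The core was found in 3 of the 6 windows (Ddx58, Ifih1 and Eif2ak2), and not in those of Tlr3, Mavs and Ticam1, against 3.44% of all 32851 promoters. It lay 3 to 12 bases after the start in Ddx58, on the opposite strand, and 33 to 42 bases after it in Ifih1 and 19 to 28 in Eif2ak2. Eif2ak2 thus held the core although its signal did not pass, and Tlr3 rose without an exact match in its window. A second motif, TTCNNNGAA (the gamma-activated site), was found only in Eif2ak2 among these 6, at positions -178 to -170 relative to the start, against 8.30% of all promoters, and it does not overlap the ISRE core. Over all genes tested with a promoter in the table, 13.2% of those higher in siRetSat, 3.40% of those lower and 3.89% of all held the ISRE core, which is given as a description.

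To show where the core lies, the last 100 bases of 5 windows are printed, 50 on each side of the start, 5′ to 3′ on the strand of the gene with the ISRE core in capitals. Mavs stands for the windows of adaptors, which held no core. The stretches lie at chr4:40239776-40239875 (minus strand) for Ddx58, chr2:62646206-62646305 (minus strand) for Ifih1, chr17:78882523-78882622 (minus strand) for Eif2ak2, chr8:45410331-45410430 (minus strand) for Tlr3 and chr2:131234013-131234112 (plus strand) for Mavs.
Ddx58: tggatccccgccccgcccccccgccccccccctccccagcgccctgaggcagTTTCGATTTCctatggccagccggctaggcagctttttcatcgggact
Ifih1: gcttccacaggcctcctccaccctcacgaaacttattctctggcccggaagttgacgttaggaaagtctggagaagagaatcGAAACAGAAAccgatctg
Eif2ak2: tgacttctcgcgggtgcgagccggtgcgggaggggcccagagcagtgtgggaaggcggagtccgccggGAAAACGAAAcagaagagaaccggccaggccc
Tlr3: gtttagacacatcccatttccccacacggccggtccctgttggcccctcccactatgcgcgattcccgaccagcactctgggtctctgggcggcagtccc
Mavs: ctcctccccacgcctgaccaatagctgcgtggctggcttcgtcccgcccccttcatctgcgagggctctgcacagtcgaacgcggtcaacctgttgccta

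Among genes that regulate or carry the signal of the RIG-I-like receptors, 28 of 31 were measured. Of these 4 rose, 3 fell and 21 did not pass, with a list median of 0.03, beside 1.91% of all genes higher and 1.66% lower. An unadjusted limma p under 0.05 was met by 7 of the 28 as higher and 3 as lower, beside 6.98% and 7.52% of all genes. The methods' t-test at the study's cutoffs gave 6 higher and 3 lower, beside 3.6% and 3.55% of all genes. Irf7, the transcription factor that amplifies interferon production, averaged 10.17 ± 0.08 in siRetSat and 9.20 ± 0.01 in siControl (log2, SD, n = 3 each), which is a log2 fold change of 0.97 (limma, adjusted p = 0.00128). The helicase Ddx60 rose by 0.99, and the ubiquitin ligases Rnf125, which marks RIG-I for degradation, and Trim25, which activates it in human cells, by 0.61 and 0.43. The inflammatory kinase Ikbkb, the mitochondrial fusion protein Mfn2 and the ubiquitin ligase Itch, which degrades MAVS, fell, with log2 fold changes of -0.40, -0.49 and -0.45. Irf7 passed in all 6 fits that left out a single array, Ddx60 and Rnf125 in 3, Trim25, Mfn2 and Itch in 1 and Ikbkb in none. Of the kinases that act below MAVS and TRIF, Tbk1 was at 0.03 (limma, adjusted p = 0.969) and Ikbke at 0.54 (limma, adjusted p = 0.150).

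Of 21 measured genes of other Toll-like receptors and their partners, 2 rose, none fell and 19 did not pass, with a median of 0.02. Of all genes 1.91% rose and 1.66% fell by the adjusted p. Tlr1, Tlr6, Tlr8, Tlr12 and Tlr13 were dim in both groups (5 of the 21), and a change of a dim gene could be missed. At an unadjusted p under 0.05 from limma 4 of the 21 were higher and 1 lower, beside 6.98% and 7.52% of all genes. By the methods' t-test at the study's cutoffs 3 were higher and 0 lower, beside 3.6% and 3.55% of all genes. Tlr2, a receptor for bacterial lipoproteins, and Cd14, a co-receptor that also helps TLR3 take up double-stranded RNA, rose by 0.63 and 0.59. Each of them passed in 2 of the 6 fits that left out a single array. Tlr4 had a log2 fold change of 0.86 with a wide spread (SE 0.259, limma adjusted p = 0.147). Its siControl mean was 4.27, so it was dim in that group and the size of its change is uncertain. Unc93b1, which carries the nucleic acid-sensing receptors to endosomes, had one of 0.19 (limma, adjusted p = 0.453) and Myd88, the adaptor of TLR7, one of 0.21 (limma, adjusted p = 0.356).

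Genes of cytosolic DNA sensing and nucleic acid clearance had 20 of 24 members measured, of which 2 rose, none fell and 18 did not pass, with a median of 0.10. Of all genes 1.91% rose and 1.66% fell by the adjusted p. Cgas and Aim2 were among 6 of the 20 that were dim in both groups, and a change of a dim gene could be missed. At an unadjusted p under 0.05 from limma 4 of the 20 were higher and none lower, and the methods' t-test at the study's cutoffs gave the same counts, beside 6.98% and 3.6% of all genes that were higher by these rules. Adar, which edits double-stranded RNA and so limits its sensing by MDA5, rose by 0.45, and Ifi35 by 0.75. Adar passed in 1 and Ifi35 in 2 of the 6 fits that left out a single array. Samhd1, which removes deoxynucleotides, had a log2 fold change of 0.49 (limma, adjusted p = 0.112).

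The pathways below the remaining sensors were set beside them in the same way. Of 12 measured genes of RIPK-dependent and related cell death, into which ZBP1 signals, 3 rose, none fell and 9 did not pass, with a median of 0.08. Of all genes 1.91% rose and 1.66% fell by the adjusted p. At an unadjusted p under 0.05 from limma 4 of the 12 were higher and 1 lower, beside 6.98% and 7.52% of all genes. By the methods' t-test at the study's cutoffs 4 were higher and 0 lower, beside 3.6% and 3.55% of all genes. Mlkl, the pore-forming executor of necroptosis, averaged 9.15 ± 0.13 in siRetSat and 8.39 ± 0.10 in siControl (log2, SD, n = 3 each), which is a log2 fold change of 0.75 (limma, adjusted p = 0.00735) that passed in all 6 fits that left out a single array. Ripk3, the kinase that ZBP1 binds, rose by 0.51, passing in none of those 6 fits, and Gsdmd, the pore protein of pyroptosis, by 0.48, passing in 2. Of 11 measured eIF2 kinases and PKR regulators, none rose, 1 fell and 10 did not pass, with a median of -0.09. The adjusted shares of all genes were again 1.91% higher and 1.66% lower. At an unadjusted p under 0.05 from limma none of the 11 was higher and 4 were lower, and by the methods' t-test at the study's cutoffs none and 2, beside 7.52% and 3.55% of all genes that were lower. The one that fell was Eif2ak3 (PERK, the eIF2 kinase of the endoplasmic reticulum), with a log2 fold change of -0.51 (limma, adjusted p = 0.0319), which passed in 1 of the 6 fits that left out a single array.

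No interferon gene of the list passed. Of those listed, 10 were measured, with log2 fold changes from -0.23 to 0.22, and other interferon genes were not examined. In both groups 8 of the 10 were dim, including Ifnb1 at 3.63 in siRetSat and 3.68 in siControl. None of the 10 was past an unadjusted p of 0.05 from limma or the study's cutoffs by the methods' t-test. Ifnl2, a type III interferon with a close paralog, had log2 values of 8.13, 7.64 and 7.19 in siRetSat and of 7.80, 7.53 and 6.97 in siControl. Its groups overlapped, at a log2 fold change of 0.22 (limma, adjusted p = 0.850). Of the 6 receptor chains none passed. An unadjusted limma p under 0.05 was met by 2 of these chains as lower and none as higher, beside 7.52% and 6.98% of all genes. The methods' t-test at the study's cutoffs gave 1 lower and none higher, beside 3.55% and 3.6% of all genes. Il10rb, a chain of the type III interferon receptor, had a log2 fold change of -0.52 (limma, adjusted p = 0.0749) and Ifnar1, of the type I receptor, one of -0.31 (limma, adjusted p = 0.124). At dim signal a change of an interferon gene could be missed, and RNA taken 48 h after the medium change does not show earlier times.

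Among 16 genes of the small RNA machinery, part of which handles siRNA duplexes inside the cell, none passed, with a median of -0.02. At an unadjusted p under 0.05 from limma 3 of the 16 were higher and none lower, beside 6.98% and 7.52% of all genes, and the methods' t-test at the study's cutoffs gave none. Ago2, the slicing Argonaute protein, had a log2 fold change of 0.21 (limma, adjusted p = 0.277), and Sidt2, a lysosomal RNA transporter, one of 0.23 (limma, adjusted p = 0.283).

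**Figure D3:**
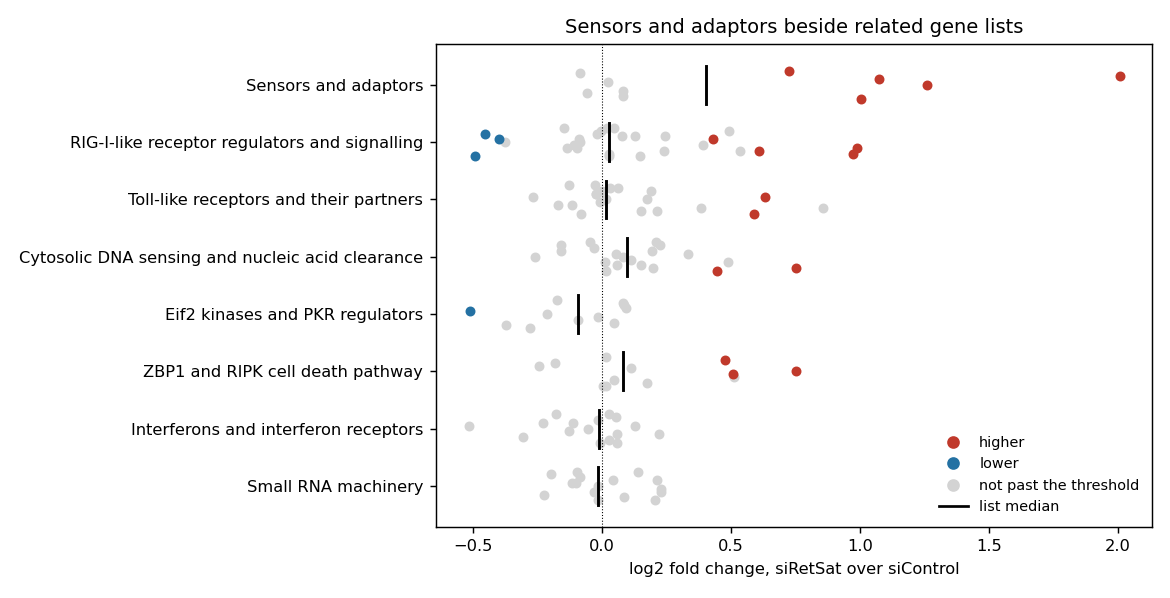
Each dot is 1 gene, placed along the x axis by its log2 fold change (siRetSat over siControl), for the 10 sensors and adaptors at the top and 7 related lists under them (3 arrays per group). Black bars are list medians, and red and blue dots passed an adjusted p of 0.05 from limma. The median of the sensors and adaptors was 0.40, against -0.09 to 0.10 for the related lists. No member lay near 0.40, since 5 were at 0.72 to 2.01 and 5 at -0.09 to 0.08. Members and lists were chosen with earlier results known.

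Some of these sensors are also strongly expressed by immune cells, so markers of other liver cells were read on the same arrays. In bulk samples fewer cells of a type and less RNA per cell cannot be told apart. Of 14 macrophage and Kupffer cell markers none passed, with a median of 0.03, and 1 was higher at an unadjusted p under 0.05 from limma and by the methods' t-test at the study's cutoffs, beside 6.98% and 3.6% of all genes. In both groups 10 of the 14 were dim, among them Adgre1, Vsig4 and Csf1r, whereas Clec4f, C1qa and C1qb lay near the limit and Cd68 was bright. The log2 of their summed signal, most of it from Cd68, ran from 11.58 to 11.67 in siRetSat and from 11.15 to 11.34 in siControl. Cd68, a lysosomal glycoprotein, had a log2 fold change of 0.40 (limma, adjusted p = 0.0563). The part of such cells in the rise of the sensors was not tested. Of 8 endothelial, 8 stellate cell and fibroblast and 9 lymphocyte and dendritic cell markers, none passed. At an unadjusted p under 0.05 from limma 1 endothelial marker was higher and 1 lower, beside 6.98% and 7.52% of all genes. None of the other markers was past it. The methods' t-test at the study's cutoffs gave 1 lower endothelial marker, beside 3.55% of all genes lower, and none of the others. In the lymphocyte and dendritic cell list 8 of 9 were dim in both groups. The log2 of its summed signal ran from 6.70 to 7.15 in siRetSat and from 6.67 to 7.01 in siControl. For the endothelial list it ran from 8.03 to 8.28 in siRetSat and from 8.04 to 8.22 in siControl, and for the stellate cell and fibroblast list from 7.79 to 8.78 in siRetSat and from 7.73 to 8.09 in siControl.

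For each sensor that rose, the gene outside the 10 with the most similar profile was found by the root mean square distance over the 6 arrays, after taking each gene relative to its siControl mean. For Zbp1 it was Oasl2, an interferon-induced gene related to the oligoadenylate synthetases, at a distance of 0.0836 log2 units and a log2 fold change of 1.90 (limma, adjusted p = 0.000112). For Ifih1 it was the interferon regulatory factor Irf5, at a distance of 0.0434 and a log2 fold change of 0.67 (limma, adjusted p = 0.0196). Irf5 passed in 2 of the 6 fits that left out a single array. For Dhx58 it was Tdrd12, which acts in the piRNA pathway of germ cells, at a distance of 0.0532 and a log2 fold change of 1.13. The siControl mean of Tdrd12 was 3.99, so it was dim in that group and the size of its rise is uncertain. For Ddx58 it was Tmx1, a thioredoxin-related protein of the endoplasmic reticulum, at 0.0722 and a log2 fold change of 1.01. For Tlr3 it was Abcb1b, a drug efflux pump, at 0.0759 and a log2 fold change of 1.27. With 6 arrays in 2 groups this likeness mostly reflects a fold change of similar size.

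**Figure D4:**
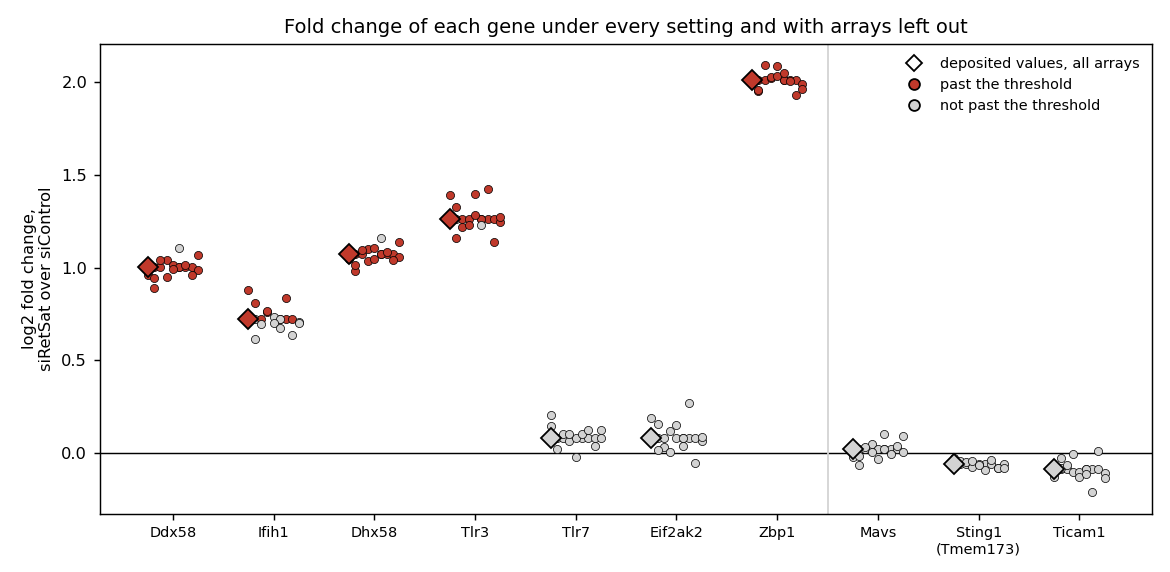
Each gene has a diamond for the log2 fold change (siRetSat over siControl) from the deposited values and a circle for each other setting or omission of arrays, red where it passed that setting's threshold. Zbp1 was red throughout, between 1.93 and 2.09, Ifih1 lay between 0.615 and 0.88 with 10 of its 20 circles grey, and Tlr7, Eif2ak2 and the adaptors had no red circle.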

How the data were processed

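The values were log2 intensities of 35556 probe sets on each of 6 arrays, normalized by the authors before they were deposited. RMA (background correction, quantile normalization and probe summarisation) and Partek 6.6 are named in the submitters' processing notes. The annotation and filters they used were not given in the sources used here. GEO's platform annotation gave 1 symbol to 21789 probe sets, several to 1621 and none to 12146. Symbols were updated by Entrez identifier to RefSeq (GRCm38.p6), and for each of 19938 genes its brightest probe set was taken. siRetSat was compared with siControl by limma 3.58.1 in R 4.3.3 (lmFit, eBayes, no covariates), Benjamini-Hochberg adjusted over all genes at 0.05. This step was tested on simulated data. Plots were made with matplotlib 3.10.9 in Python 3.11.15.

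Members and lists were chosen with earlier results of these data known. Named were all members and Retsat, and the nearest profile of each member that passed. The genes to be named were up to 4 with the smallest p in each of 7 pathway lists. For the 5 marker lists they were those past the threshold and the brightest. Not every gene so picked is named, and other genes were named after their values were seen. Alternatives were the methods' t-test, a filter on dim genes, a variance trend, blocking on replicate number, other normalizations and backgrounds, other uses of probe sets, array weights and omitted arrays.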

Additional observations from a re-analysis of the deposited data

How the results depend on the processing

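Retsat kept its fall and Zbp1 its rise past the threshold under all 20 alternatives. The members higher in siRetSat numbered 4 or 5 with a single array left out. They numbered 3 by the methods' t-test with Benjamini-Hochberg adjustment, where Ifih1 and Tlr3 were lost. They numbered 1 without both arrays numbered 2, and 5 and 4 without those numbered 1 and 3, omissions added after seeing the data. Ifih1 missed the threshold under 10 of 20 alternatives. Over all genes the count of 710 became 1425 by the methods' t-test at the study's cutoffs, 196 after its adjustment, 1078 with a variance trend, 342 with median centring, 445 with background subtraction, 329 over all probe sets and 2905 with array weights. It ran from 207 to 646 with a single array left out and was 822, 15 and 111 without both arrays numbered 1, 2 and 3. With the replicate number as a block it was 1541, and the same 5 members were higher. The numbers were not taken to pair the arrays, since the labels do not say what they mark. The correlation of deviations was 0.547, 0.0398 and 0.541 for the arrays numbered 1, 2 and 3. Between arrays of unlike numbers it ran from -0.567 to 0.247. On the first principal component of the deviations both groups had their arrays in the order 1, 2, 3. Whether the numbers mark pairs was not tested. Among members that did not pass, Mavs changed sign with array weights (-0.0636), with a single array left out (-0.0317 to 0.0933) and with both arrays of a number left out (-0.02 to 0.105). Eif2ak2 (-0.0517 to 0.268) and Ticam1 (-0.21 to 0.015) did so with a single array left out, and Tlr7 (-0.02 to 0.145) with both arrays of a number left out. Sting1 and Tlr7 lay at the floor after background subtraction and were removed by the filter on dim genes, so neither has a value there. The causes were not tested. The number of arrays limits the precision. Dim signal limits what can be said of Tlr7, Sting1, the interferon genes and the dim genes of the other lists.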
